A study of Mus musculus with 12 samples.

Results

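The genes described here are 41 marker genes of leukocytes, the white blood cells that live in or enter the kidney. They were chosen by symbol from the 32047 genes of the deposited count table, by a rule that sets no threshold on measured values, and all 41 were found. The list was drawn up with earlier results of these data known. By lineage they comprised 5 neutrophil genes, 14 monocyte and macrophage genes, 6 genes shared by most leukocytes or by the myeloid lineage, 6 genes of dendritic cells and antigen presentation, 5 T cell genes, 3 B cell genes and 2 genes of natural killer (NK) and cytotoxic cells. RNA with a poly(A) tail was sequenced from 12 mouse kidney libraries in 3 groups of 4. NC is the group without either of the other names in its label, and the labels do not spell the abbreviation out. AKI_A_mcherry carried the name of the red fluorescent protein mCherry and acute kidney injury. AKI_A_FGF23_R176QR179Q was labelled for the same injury after mice had overexpressed, 3 weeks before, fibroblast growth factor 23 with the substitutions R176Q and R179Q. The series describes the injury as rhabdomyolysis, the breakdown of skeletal muscle. The vector, the promoter, the strain, sex and age of the mice and the time between injury and sampling are not stated in the labels. Nor do the labels say whether each library is 1 animal, so the spread behind each p-value is that between libraries and may in part be technical. In the following, the groups are called NC, the mCherry group and the FGF23 variant group. By label, both injured groups differ from NC in the injury and in the named protein. The parts of these in a difference from NC cannot be told apart.

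Neutrophils are short-lived cells that leave the blood within hours of tissue damage, and they carry the calcium-binding proteins S100a8 and S100a9 in abundance. Kidney macrophages are of mixed origin. Resident cells depend on the receptor Csf1r and commonly carry Adgre1 (F4/80) and Cx3cr1, while monocytes that enter from the blood use Ccr2 and carry Ly6c2 before they mature. Antigen-presenting cells load peptides onto major histocompatibility complex (MHC) class II molecules, whose chains include H2-Aa and H2-Ab1, with the invariant chain Cd74 as chaperone. Lymphocytes are sparse in uninjured kidney, so their markers are read from few counts in whole tissue.

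The leukocyte markers did not move as 1 block. In the mCherry group against NC, all 5 neutrophil genes and 5 of the 14 monocyte and macrophage genes were higher, led in level by Cd68 and Cd14. Csf1r, Adgre1 and Cx3cr1 were lower, as were 5 of the 6 dendritic cell and antigen presentation genes. In the FGF23 variant group against the mCherry group, Cd68, Cd14, Lyz2 and Arg1 were lower, while Csf1r and Cx3cr1 were higher. None of the 5 neutrophil members passed the test in that comparison, nor did H2-Aa, H2-Ab1 or Cd74. In a wider list of neutrophil genes, 2 of 10 tested were lower there, beside 11.4% of all genes.

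Counts were tested with edgeR's quasi-likelihood F test over all genes, and a gene was called at a Benjamini-Hochberg adjusted p under 0.05. For the mCherry group against NC, 39 members passed the filter on low counts, of which 10 were higher (25.6%) and 12 lower (30.8%). Over all 18724 genes tested, 27.2% were called higher and 26.0% lower, so the share of members called was near the background. For the FGF23 variant group against the mCherry group, 2 of 35 members tested were higher (5.71%, against 11.7% of all genes) and 4 were lower (11.4%, against 11.4%). For the FGF23 variant group against NC, 7 of 38 were higher (18.4%, against 21.7%) and 11 lower (28.9%, against 20.6%). What the members show therefore lies in which lineages and genes moved each way, and not in how many were called.

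**Figure D1:**
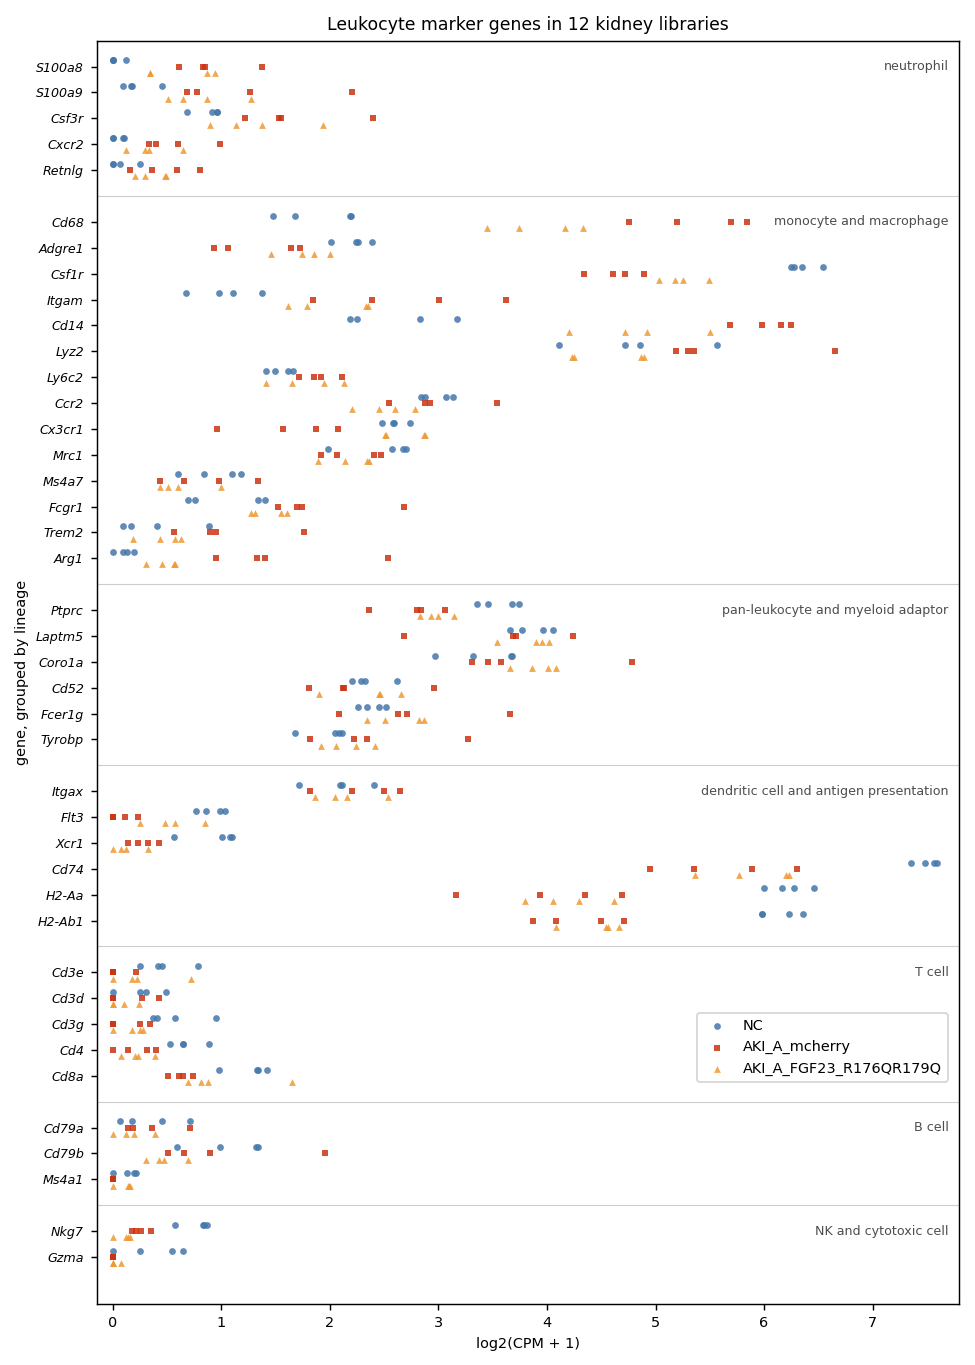
Level of each of the 41 leukocyte marker genes in the 12 libraries, as log2(CPM + 1) on the x axis, with genes grouped by lineage on the y axis. Each point is 1 library (circles NC, squares AKI_A_mcherry, triangles AKI_A_FGF23_R176QR179Q). Cd68 and Cd14 lay lowest in NC, while Csf1r, Cd74, H2-Aa and H2-Ab1 lay highest there.

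Total counts were 55324078 to 70638283 per library, and levels below are CPM, counts scaled to library size with TMM factors over all 12 libraries. A library's nominal floor of 3 counts lay at 0.038 to 0.06 CPM. As a check of the tissue, the thick ascending limb gene Umod stood at 5064 ± 1020 CPM (SD, n = 4) in NC, 3064 ± 178 in the mCherry group and 5299 ± 1141 in the FGF23 variant group. The tubular injury gene Havcr1 rose from 3.26 ± 1.23 CPM in NC to 2812 ± 746 in the mCherry group, and stood at 1048 ± 489 in the FGF23 variant group. Replicate 2 of the mCherry group stood apart for the leukocyte genes. It was the highest of its group for 28 of the 39 members with counts there, and replicate 3 was the lowest for 23. Red blood cell genes followed the same libraries, with a summed level of 6 genes of 181 CPM in replicate 2 and 24.3 in replicate 3. Across groups that sum ranged from 109 to 304 CPM in NC, from 24.3 to 181 in the mCherry group and from 95.7 to 311 in the FGF23 variant group, with no red blood cell gene at 0 throughout a group. The part of blood in the results was not tested. Without replicate 2 of the mCherry group, 9 members were higher and 13 lower against NC, and 3 were higher and 4 lower in the FGF23 variant group against the mCherry group. In whole tissue, fewer cells of a type and less RNA per cell cannot be told apart.

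In NC the neutrophil genes S100a8, Cxcr2 and Retnlg had 0 counts in some libraries, while S100a9 and Csf3r had counts in all 4. S100a8, 1 chain of calprotectin, had 0, 0.0877, 0 and 0 CPM in the NC libraries, 1.6, 0.8, 0.522 and 0.773 in the mCherry group and 0.266, 0.824, 0.915 and 0.267 in the FGF23 variant group. With 3 NC libraries at 0 its fitted change of 5.31 ± 0.97 (log2, SE) in the mCherry group depends on the prior count, and it was 8.79 without NC replicate 2 (edgeR adjusted p = 9.42e-04 with all libraries). Its partner S100a9 measured 0.368, 0.123, 0.131 and 0.0644 CPM in NC, 1.4, 3.62, 0.601 and 0.713 in the mCherry group and 0.418, 0.824, 1.42 and 0.562 in the FGF23 variant group. All 8 injured libraries were above all 4 NC libraries for both genes. The S100a9 change of 3.23 ± 0.72 against NC (log2, SE; adjusted p = 0.00339) was 2.42 without mCherry replicate 2, the highest library, and 3.90 without NC replicate 1.

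Csf3r, the receptor for the growth factor that drives neutrophil production, measured 0.883, 0.948, 0.605 and 0.95 CPM in NC and 1.89, 4.28, 1.33 and 1.93 in the mCherry group. Those groups did not overlap, and the log2 change was 1.50 ± 0.39 (SE; edgeR adjusted p = 0.00747). The FGF23 variant libraries, at 0.862, 1.6, 2.83 and 1.19 CPM, overlapped both of the other groups. The chemokine receptor Cxcr2 was higher in the mCherry group by 3.84 ± 0.94 (log2, SE; adjusted p = 0.00554), from 0.0736, 0.0702, 0 and 0 CPM in NC to 0.263, 0.98, 0.317 and 0.52. Retnlg, a resistin-like protein of neutrophils, was called higher at 2.75 ± 1.04 (log2, SE; adjusted p = 0.046), but its groups overlapped. That call was lost without mCherry replicate 1, 2 or 3 or NC replicate 1, 3 or 4, with adjusted p of up to 0.121, and its change was 4.49 without NC replicate 2.

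The median log2 change of the 5 neutrophil genes was 3.23 against NC in the mCherry group, beside 0.00 over all genes tested. In the FGF23 variant group against the mCherry group the median was -0.69, beside 0.01 over all genes, and the 5 genes lay between -0.96 (S100a9) and -0.46 (Retnlg). Leaving out 1 library moved that median to between -1.02 (without FGF23 variant replicate 3) and -0.16 (without mCherry replicate 2), and it was -0.46 without FGF23 variant replicate 1 or 5. None of the 5 passed the test there, with adjusted p of 0.271 to 0.608. Against NC the FGF23 variant group kept S100a8 (4.62 ± 1.02, log2 and SE, edgeR adjusted p = 0.00429) and S100a9 (2.25 ± 0.59, adjusted p = 0.0112) above the threshold. With replicate numbers as a block, the S100a9 change was 2.12 and was not called (adjusted p = 0.122). Without NC replicate 2 the S100a8 change was 8.28, and without NC replicate 1 the S100a9 change was 2.92. Csf3r (adjusted p = 0.0622) and Retnlg (0.0793) were not called, and Cxcr2 was not tested for lack of counts. Csf3r was called without FGF23 variant replicate 1, at 1.16 (adjusted p = 0.0225), and Retnlg without NC replicate 2, at 4.03 (0.0143). With library totals alone, Csf3r (1.28, 0.0142) and Retnlg (2.60, 0.0424) were called too. DESeq2 called Csf3r (0.94, 0.0415), and voom called Retnlg (2.66, 0.0414). Both of these comparisons and the first share samples, so their values stand side by side and are not independent.

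A wider list of 17 neutrophil genes summed to 12.3 to 19.7 CPM in NC, 9.31 to 18.8 in the mCherry group and 7.73 to 20.2 in the FGF23 variant group. The granule genes Camp, Elane, Mmp8 and Mpo had no counts in any NC library, and Elane and Ngp had none in any mCherry library. Of the 9 tested against NC, 4 were higher and 1 lower in the mCherry group, beside 27.2% and 26.0% of all genes. The lower one was Hdc, histidine decarboxylase, which mast cells and basophils also make and which had the highest level of the list (11.9 ± 1.99 CPM in NC and 4.95 ± 2.41 in the mCherry group, SD, n = 4; adjusted p = 0.0127). Itgb2l, a beta 2-like integrin next in level, did not pass the test, at 3.73 CPM in NC and 2.21 in the mCherry group (-0.74 ± 0.30 in log2, adjusted p = 0.0572). In the FGF23 variant group against the mCherry group, 2 of 10 tested were lower and none higher, beside 11.4% and 11.7% of all genes.

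Among macrophage genes, Cd68 and Csf1r moved in opposite directions. Cd68, a lysosomal glycoprotein of phagocytes, measured 3.57, 2.21, 1.78 and 3.54 CPM in NC, 50.7, 56.5, 26 and 35.8 in the mCherry group, and 9.9, 16.9, 19.2 and 12.4 in the FGF23 variant group. No 2 groups overlapped, and the FGF23 variant group lay between the others. The log2 change was 3.95 ± 0.31 (SE) in the mCherry group against NC (edgeR adjusted p = 2.78e-06) and -1.53 ± 0.27 in the FGF23 variant group against the mCherry group (adjusted p = 0.00439). Csf1r, the receptor on which macrophages depend for survival, had the reverse order. Its libraries measured 92.5, 76.6, 80.7 and 75.1 CPM in NC, 25.3, 28.7, 19.3 and 23.4 in the mCherry group, and 44, 37.2, 35.3 and 31.8 in the FGF23 variant group. Again no group overlapped another. The change against NC was -1.73 ± 0.14 in the mCherry group (log2, SE; adjusted p = 2.82e-06), and the FGF23 variant group was 0.62 ± 0.14 above the mCherry group (adjusted p = 0.0124).

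Within each library, the level of Cd68 over that of Csf1r was 0.0221 to 0.0472 in NC, 1.35 to 2 in the mCherry group and 0.225 to 0.544 in the FGF23 variant group. This ratio was chosen after the values were seen and is given as a description, with no test. In the gene annotation, 15.1% of the exonic bases of Csf1r overlap Hmgxb3 on the opposite strand, and how strand was used in counting is not stated. Hmgxb3 had 35.2 ± 2.92 CPM in NC (SD, n = 4), 19.3 ± 1.87 in the mCherry group and 32.1 ± 4.35 in the FGF23 variant group.

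**Figure D2:**
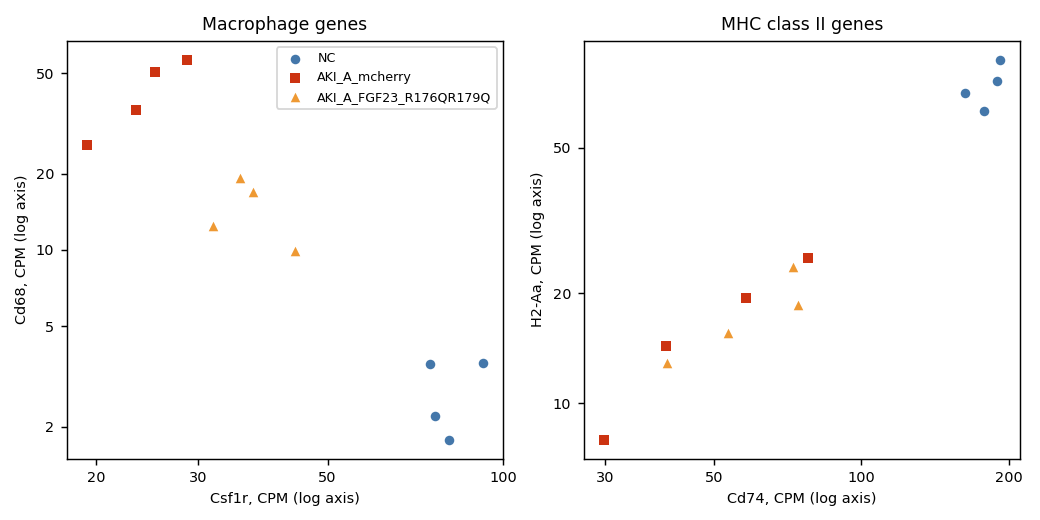
Left, level of Cd68 against that of Csf1r in each of the 12 libraries, in CPM on log axes. Right, H2-Aa against Cd74 on the same scale. Circles are NC, squares AKI_A_mcherry and triangles AKI_A_FGF23_R176QR179Q. On the left the 3 groups stand in separate places, with Cd68 over Csf1r between 0.225 and 0.544 in the FGF23 variant group and from 1.35 to 2 in the mCherry group. On the right the FGF23 variant libraries lie among the mCherry libraries.

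Cd14, the co-receptor for bacterial lipopolysaccharide, followed Cd68. It measured 8, 6.09, 3.76 and 3.54 CPM in NC, 62.2, 75.1, 70.3 and 50.5 in the mCherry group and 17.4, 29.4, 44.3 and 25.4 in the FGF23 variant group, without overlap between groups. Its log2 change was 3.62 ± 0.27 against NC in the mCherry group (SE; edgeR adjusted p = 1.78e-06) and -1.15 ± 0.25 in the FGF23 variant group against the mCherry group (adjusted p = 0.0103). The tubular injury gene Havcr1, given above, had the same order of group means. Which cells of the tissue the Cd14 RNA came from was not tested. Itgam (CD11b), an integrin chain of monocytes, macrophages and neutrophils, measured 1.6, 1.16, 0.964 and 0.596 CPM in NC and 7.03, 11.3, 2.6 and 4.24 in the mCherry group. It was higher there by 2.57 ± 0.47 (log2, SE; adjusted p = 9.42e-04). The FGF23 variant libraries, at 2.07, 4.09, 4.03 and 2.46 CPM, overlapped the mCherry group, and the change of -0.99 ± 0.42 did not pass the test (adjusted p = 0.115). It passed only without mCherry replicate 3, at -1.25 (adjusted p = 0.0401). Of the exonic bases of Itgam, 68.7% are shared on the same strand with Gm49368, which was at 0.183 CPM on average in NC, 0.917 in the mCherry group and 1.59 in the FGF23 variant group. Reads of the 2 genes may have been split in counting, so the Itgam values are uncertain to that extent.

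Arg1, arginase 1, is a marker of wound-associated macrophages. Its libraries had 0, 0.0702, 0.147 and 0.0966 CPM in NC, 1.51, 4.78, 1.65 and 0.936 in the mCherry group and 0.368, 0.476, 0.239 and 0.491 in the FGF23 variant group. No 2 groups overlapped. The mCherry group was higher than NC by 4.78 ± 0.77 (log2, SE; edgeR adjusted p = 4.17e-04), and the FGF23 variant group was below the mCherry group, at -2.48 ± 0.52 (adjusted p = 0.009). Without mCherry replicate 2, the highest library, these changes were 4.08 and -1.78, and both stayed past the threshold (adjusted p = 0.00108 and 0.0138).

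Lyz2, lysozyme of macrophages and neutrophils, was high in every group. It measured 46.4, 28, 16.3 and 25.3 CPM in NC, 38.3, 99.4, 39.9 and 35.5 in the mCherry group and 18, 28.7, 28.1 and 17.8 in the FGF23 variant group. Here the mCherry libraries overlapped NC, and the change of 0.91 ± 0.38 was not called (log2, SE; edgeR adjusted p = 0.0682). It was 0.41 without mCherry replicate 2 (adjusted p = 0.255) and was called without NC replicate 1, at 1.22 (adjusted p = 0.0237). It was also called with library totals alone (0.99, adjusted p = 0.0342) and by voom (0.70, 0.0483). All 4 FGF23 variant libraries were below all 4 mCherry libraries, with a change of -1.20 ± 0.33 (adjusted p = 0.0285). Without mCherry replicate 2 that change was -0.71 (adjusted p = 0.0312), and without FGF23 variant replicate 1 or 5 it was -1.09 with an adjusted p of 0.0828 or 0.0815. The near-identical copy Lyz1 was at 0.29, 0.0408 and 0.0939 CPM on average in NC, the mCherry group and the FGF23 variant group.

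The Fc receptor Fcgr1 (CD64) measured 1.53, 1.65, 0.686 and 0.612 CPM in NC, 2.24, 5.4, 2.34 and 1.87 in the mCherry group and 1.48, 1.92, 1.41 and 2.05 in the FGF23 variant group. Its rise of 1.43 ± 0.45 in the mCherry group (log2, SE; edgeR adjusted p = 0.0203) was lost without mCherry replicate 2 (0.96, adjusted p = 0.066), without NC replicate 3 (1.25, 0.0576) and without NC replicate 4 (1.22, 0.0559). Trem2, a lipid receptor of tissue macrophages, was low and did not pass the main edgeR test in any comparison. Its change against NC in the mCherry group was 1.81 ± 0.76 (adjusted p = 0.0673). It was called by DESeq2 (1.81, 0.0328), by voom (2.30, 0.00878), without mCherry replicate 3 (2.08, 0.0466) and without NC replicate 1 (2.78, 0.0115). Between the injured groups it was -1.59 ± 0.57 (adjusted p = 0.0665), called by DESeq2 (-1.61, 0.0247) and without mCherry replicate 3 (-1.85, 0.0416).

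Adgre1 and Cx3cr1 were lower in the mCherry group than in NC. Adgre1 measured 3.79, 3.04, 4.25 and 3.73 CPM in NC and 2.31, 2.12, 0.902 and 1.08 in the mCherry group, without overlap, for a change of -1.19 ± 0.33 (log2, SE; edgeR adjusted p = 0.0106). The FGF23 variant libraries, at 2.61, 2.35, 2.99 and 1.75 CPM, overlapped the mCherry group, and their difference of 0.60 ± 0.34 from the mCherry group did not pass the test (adjusted p = 0.224). Cx3cr1, the fractalkine receptor, measured 5, 5.65, 4.59 and 5.01 CPM in NC, 3.21, 2.66, 0.95 and 1.96 in the mCherry group and 6.34, 4.71, 6.31 and 4.7 in the FGF23 variant group. Here the mCherry libraries were below all 8 others, at -1.18 ± 0.33 against NC (adjusted p = 0.0108). With the FGF23 variant, Cx3cr1 was 1.33 ± 0.33 above the mCherry group (adjusted p = 0.0181), and 1.26 without FGF23 variant replicate 1 (adjusted p = 0.052). With replicate numbers as a block this difference was 1.48 and was not called (adjusted p = 0.0764). Against NC the FGF23 variant group differed by 0.14 ± 0.16 (adjusted p = 0.52).

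Of the other macrophage genes, those of incoming monocytes did not pass the main edgeR test in either the first or the second comparison. Ccr2, the receptor that draws monocytes from bone marrow, had 6.33, 6.14, 7.42 and 7.77 CPM in NC and 6.36, 10.6, 4.84 and 6.6 in the mCherry group (0.06 ± 0.24 in log2, edgeR adjusted p = 0.843). Its change in the FGF23 variant group against the mCherry group was -0.57 ± 0.25 (adjusted p = 0.126), from libraries at 3.61, 5.89, 5.08 and 4.48 CPM. Ly6c2 was at 2.15, 1.81, 2.06 and 1.66 CPM in NC and at 3.33, 2.28, 2.61 and 2.79 in the mCherry group, without overlap (0.54 ± 0.22, adjusted p = 0.058). It was called in 4 of 15 alternatives. These were DESeq2 (0.53, adjusted p = 0.0353), voom (0.64, 0.0145), library totals alone (0.67, 0.031) and the fit without mCherry replicate 2 (0.62, 0.0409). Its copy Ly6c1, an endothelial gene, was at 55.5 ± 16.4 CPM in NC and 97.4 ± 13.1 in the mCherry group (SD, n = 4), so the Ly6c2 values are uncertain where reads of the copies could be confused. The mannose receptor Mrc1 (-0.32 ± 0.25) and Ms4a7 (-0.11 ± 0.49), a tetraspanin-like gene of mature macrophages, did not pass the test against NC either (adjusted p = 0.308 and 0.872).

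Over the 14 monocyte and macrophage genes the median log2 change against NC in the mCherry group was 0.72, beside 0.00 over all genes. Of the 14, 5 were higher and 3 lower, beside 27.2% and 26.0% of all genes, so these shares were near the background. Between the injured groups the median was -0.68, beside 0.01 over all genes, and -0.32 without mCherry replicate 2. There 2 were higher and 4 lower, beside 11.7% and 11.4% of all genes. All 6 members called in the second comparison had been called in the first except Lyz2, and each of those 5 lay in the opposite direction. The comparisons share the mCherry libraries, so this reversal is a description and not independent support.

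**Figure D3:**
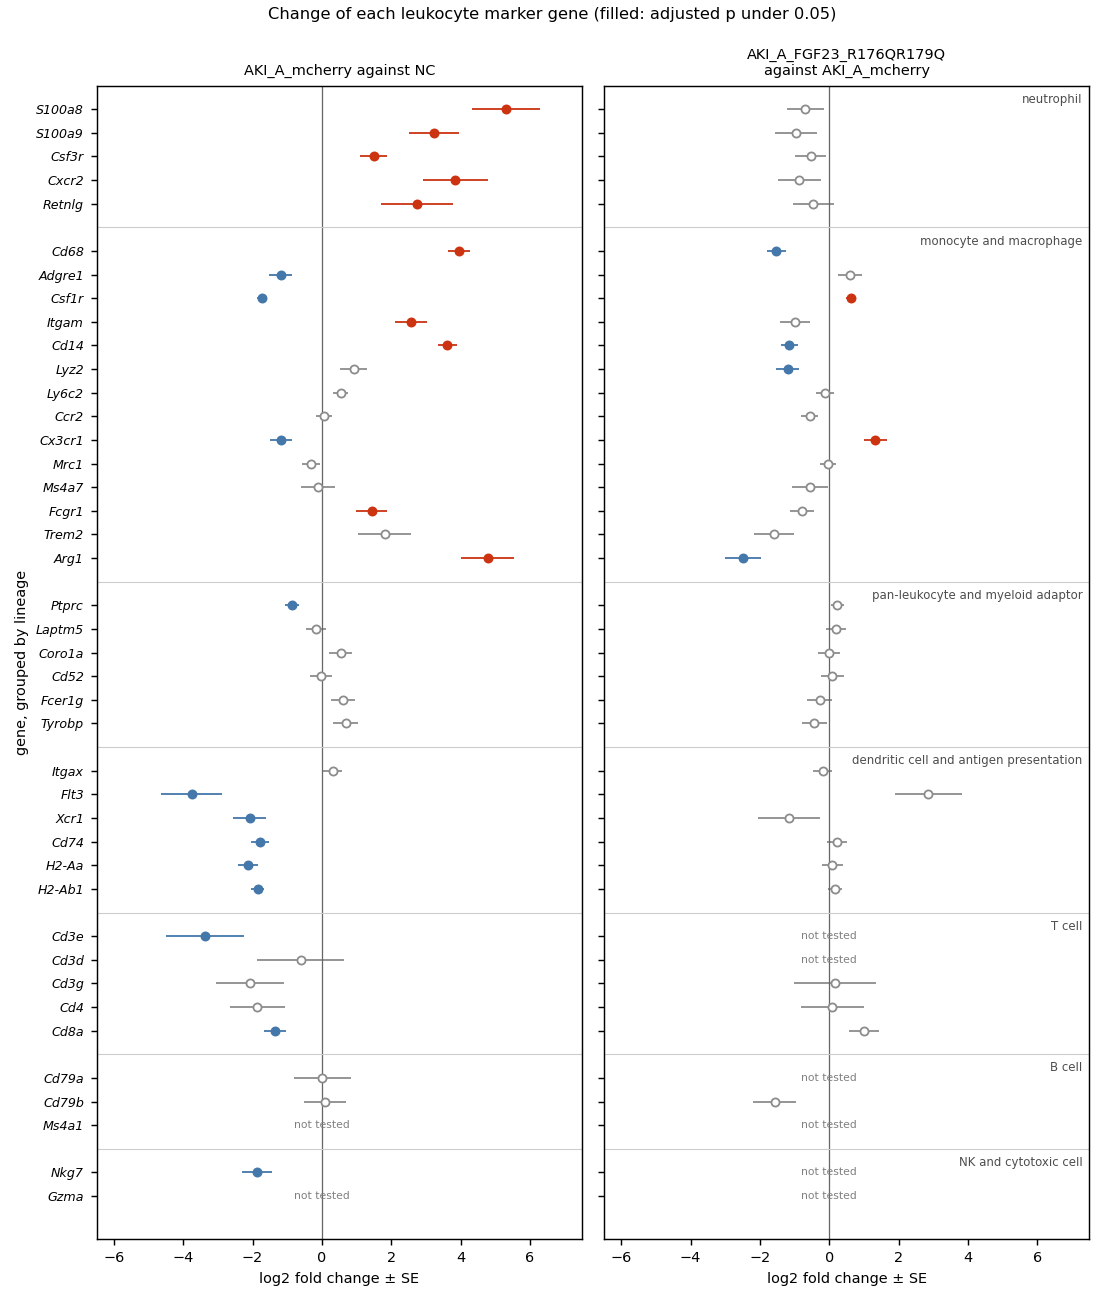
Log2 fold change with its standard error (bars) for each leukocyte marker gene, in AKI_A_mcherry against NC (left) and AKI_A_FGF23_R176QR179Q against AKI_A_mcherry (right). Filled points passed the edgeR test, red higher and blue lower, and open points did not. Cd68 stood at 3.95 on the left and -1.53 on the right, Csf1r at -1.73 and 0.62, and H2-Aa at -2.14 and 0.09.

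A wider list of 25 monocyte and macrophage genes also moved both ways. Of 24 tested, 10 were higher and 3 lower in the mCherry group against NC, beside 27.2% and 26.0% of all genes. In the FGF23 variant group against the mCherry group 2 were higher and 4 lower, beside 11.7% and 11.4% of all genes. Its most abundant gene was Spp1, osteopontin, which injured tubule cells also make, at 684 ± 69.5 CPM in NC, 28021 ± 1858 in the mCherry group and 13862 ± 6565 in the FGF23 variant group (SD, n = 4). The Spp1 difference between the injured groups (-1.01 ± 0.32 in log2, edgeR adjusted p = 0.0464) was lost without 6 of the 8 libraries in turn, namely replicates 2 and 5 of the FGF23 variant group and each of the 4 mCherry replicates, with adjusted p of up to 0.113. Lgmn, a lysosomal protease that proximal tubule cells share, was at 566 ± 75.7 CPM in NC and 993 ± 271 in the mCherry group (0.83 ± 0.21, adjusted p = 0.00647).

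Of the 6 genes shared by most leukocytes, 1 was lower and none higher in the mCherry group against NC, beside 26.0% and 27.2% of all genes. None passed the test between the injured groups, where 11.4% of all genes were lower and 11.7% higher. Ptprc (CD45), the phosphatase on all nucleated blood cells, measured 9.21, 9.95, 11.8 and 12.4 CPM in NC, 5.96, 7.34, 4.12 and 6.15 in the mCherry group and 6.63, 6.97, 7.84 and 6.11 in the FGF23 variant group. All 8 injured libraries were below all NC libraries. The change was -0.86 ± 0.20 in the mCherry group (log2, SE; edgeR adjusted p = 0.00402) and -0.64 ± 0.14 in the FGF23 variant group (adjusted p = 0.00381), with 0.23 ± 0.19 between the injured groups (adjusted p = 0.411). The adaptor Tyrobp (DAP12), which signals for myeloid and NK receptors, measured 3.13, 3.25, 2.21 and 3.32 CPM in NC, 3.66, 8.66, 2.52 and 4.07 in the mCherry group and 3.16, 4.32, 3.72 and 2.78 in the FGF23 variant group. Here the mCherry group overlapped NC, and its 0.69 ± 0.36 was not called (adjusted p = 0.125).

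The Fc receptor chain Fcer1g gave a like pattern, with 4.73, 4.07, 3.79 and 4.46 CPM in NC and 5.19, 11.6, 3.23 and 5.56 in the mCherry group (0.61 ± 0.34 in log2, edgeR adjusted p = 0.154). Both adaptors were called higher only when mCherry replicate 3 was left out, among the libraries left out in turn, Fcer1g at 0.84 (adjusted p = 0.0338) and Tyrobp at 0.91 (adjusted p = 0.0387). Laptm5, a lysosomal protein of blood cells, Cd52, a small surface glycoprotein, and the actin regulator Coro1a were not called against NC in the mCherry group (-0.17 ± 0.29, -0.03 ± 0.31 and 0.54 ± 0.34, adjusted p = 0.641, 0.935 and 0.211). Coro1a measured 10.9, 26.5, 8.94 and 9.96 CPM there, and without replicate 2 its difference between the FGF23 variant and mCherry groups was called (0.51 higher, adjusted p = 0.0391). Of the exonic bases of Cd52, 14.5% overlap Crybg2 on the opposite strand. The median over the 6 genes was 0.25 in the mCherry group against NC, and -0.19 without its replicate 2.

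The wider list of 23 such genes had 2 higher and 5 lower in the mCherry group, beside 27.2% higher and 26.0% lower of all genes. Its most abundant gene, Cyba, a subunit of the superoxide-producing oxidase that kidney cells also make, fell from 285 ± 25.5 CPM in NC to 145 ± 35.7 in the mCherry group (SD, n = 4; edgeR adjusted p = 5.64e-04). It was lower still in the FGF23 variant group, at 98.7 ± 9.37 CPM (adjusted p = 0.0287 against the mCherry group), a call lost without FGF23 variant replicate 1, 2 or 5 (adjusted p of up to 0.0829). The actin-bundling gene Lcp1 was at 36.3 ± 0.505, 32.7 ± 12.1 and 52.6 ± 6.03 CPM in NC, the mCherry group and the FGF23 variant group, and was not called between the injured groups (0.69 ± 0.24 in log2, adjusted p = 0.0593).

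MHC class II genes were lower together in the mCherry group than in NC, and were also low in the FGF23 variant group. H2-Aa measured 87.1, 76.4, 70.6 and 63 CPM in NC, 19.4, 24.9, 7.95 and 14.3 in the mCherry group and 23.6, 18.6, 15.6 and 12.9 in the FGF23 variant group. H2-Ab1 measured 80.9, 74.1, 62.3 and 62 CPM in NC, 21.6, 25.2, 13.6 and 16 in the mCherry group and 22.3, 22.6, 24.3 and 16 in the FGF23 variant group. For Cd74 the libraries stood at 192, 189, 163 and 178 CPM in NC, 58.3, 77.8, 29.8 and 39.9 in the mCherry group and 72.7, 74.3, 53.5 and 40.1 in the FGF23 variant group. For all 3 genes every NC library was above every injured library, and the injured groups overlapped each other. Against NC the mCherry group changed by -2.14 ± 0.29 for H2-Aa, -1.85 ± 0.19 for H2-Ab1 and -1.79 ± 0.25 for Cd74 (log2, SE; edgeR adjusted p = 1.40e-04, 2.13e-05 and 1.83e-04). Between the injured groups the same genes differed by 0.09 ± 0.31, 0.16 ± 0.20 and 0.23 ± 0.29 (adjusted p = 0.854, 0.594 and 0.598).

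Promoter sequence is shown for 3 class II pathway genes that were lower in the mCherry group than in NC. Class II pathway genes are known to share an X box and a Y box upstream of the start. The transactivator Ciita is recruited there. The stretches are the 130 bases before the transcription start in the gene's own direction, from RefSeq on GRCm38.p6. Capitals mark the X box motif CTNGNAACT, then the Y box motif GATTGG or its reverse complement.
H2-Aa, minus strand, chr17:34287824-34287953: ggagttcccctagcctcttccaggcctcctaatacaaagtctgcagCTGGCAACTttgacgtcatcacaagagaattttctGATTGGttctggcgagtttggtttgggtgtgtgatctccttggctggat
H2-Eb1, plus strand, chr17:34305737-34305866: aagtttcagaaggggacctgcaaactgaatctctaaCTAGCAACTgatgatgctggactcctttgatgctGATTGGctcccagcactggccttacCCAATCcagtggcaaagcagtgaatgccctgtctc
H2-DMb1, plus strand, chr17:34153061-34153190: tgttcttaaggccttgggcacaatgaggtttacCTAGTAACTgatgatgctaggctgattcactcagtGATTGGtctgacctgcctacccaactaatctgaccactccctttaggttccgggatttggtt

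The X box motif began 84, 94 and 97 bases before the start of H2-Aa, H2-Eb1 and H2-DMb1, and the nearest Y box motif downstream of it began at 49, 60 and 62 bases. H2-Eb1 held a further Y box motif, on the other strand, 35 bases before the start. The motifs do not overlap each other, were searched on both strands of the 250 bases before the start, and were chosen after the sequences were read. Of 27025 genes in the promoter table, 16.6% held the Y box motif, 3.98% the X box motif and 0.696% both. Of 9 class II pathway genes looked up, 7 were in the table, and all 7 held the Y box motif while 3, those shown, held both. Among the 30 leukocyte markers in the table, 6 held the Y box motif (Cxcr2, Cd68, Trem2, Xcr1, H2-Aa and Nkg7), 2 the X box motif (H2-Aa and Cd8a) and 1 both. A match is a description of these letters and shows no binding.

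H2-Eb1, the most abundant gene of the wider antigen presentation list, stood at 74.3 ± 11.7 CPM in NC, 18 ± 8.53 in the mCherry group and 17.3 ± 5 in the FGF23 variant group (SD, n = 4). Its change against NC was -2.02 ± 0.30 in the mCherry group (log2, SE; edgeR adjusted p = 2.44e-04). H2-DMb1, a chain of the peptide-loading chaperone, and Ciita were singled out after their values were seen. H2-DMb1 was at 13.8 ± 2.09, 7.75 ± 1.94 and 8.75 ± 1.89 CPM in the 3 groups in the same order, a change of -0.81 ± 0.19 in the mCherry group (adjusted p = 0.00501). Ciita was at 3.38 ± 1.16, 1.28 ± 0.593 and 2.06 ± 0.448 CPM, a change of -1.38 ± 0.37 in the mCherry group (adjusted p = 0.00961). Irf8, a transcription factor of dendritic cells and monocytes and second in level, did not pass the test (14.4, 15 and 16.6 CPM on average, adjusted p = 0.676 in the mCherry group against NC). In the whole list, 9 of 18 tested were lower and none higher in the mCherry group, beside 26.0% and 27.2% of all genes. Between the injured groups 1 of 17 was higher, beside 11.7% of all genes.

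Dendritic cell genes proper were scarce. Flt3, a growth factor receptor of dendritic cell precursors, had 1.05, 0.702, 0.817 and 0.982 CPM in NC, 0, 0.08, 0.174 and 0 in the mCherry group and 0.19, 0.798, 0.394 and 0.491 in the FGF23 variant group. Here the mCherry libraries were below all others. Its change of -3.75 ± 0.88 against NC (log2, SE; edgeR adjusted p = 0.00445) rests on 2 libraries at 0 and was -5.05 without mCherry replicate 3. The FGF23 variant group stood 2.85 ± 0.97 above the mCherry group without passing the test (adjusted p = 0.0574), but was called in 5 of 15 alternatives. These were DESeq2 (2.88, adjusted p = 0.0227), voom (4.73, 0.00969), all 12 libraries in 1 fit (2.85, 0.0249), library totals alone (3.05, 0.0401) and the fit without mCherry replicate 3 (4.18, 0.0297). Over the 15 the adjusted p was 0.00969 to 0.156.

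Xcr1, the chemokine receptor of cross-presenting dendritic cells, measured 0.478, 1.12, 1.01 and 1.14 CPM in NC, 0.105, 0.34, 0.253 and 0.178 in the mCherry group and 0.0507, 0, 0.0845 and 0.253 in the FGF23 variant group. It was below NC in every injured library, at -2.08 ± 0.48 in the mCherry group (log2, SE; edgeR adjusted p = 0.00411). Itgax (CD11c), an integrin chain that dendritic cells share with macrophages, was the exception of this lineage. It measured 3.26, 2.28, 4.3 and 3.32 CPM in NC and 4.66, 5.26, 2.53 and 3.6 in the mCherry group (0.31 ± 0.28, adjusted p = 0.38). The median over the 6 genes was -1.96 in the mCherry group against NC and 0.13 in the FGF23 variant group against the mCherry group.

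Most lymphocyte markers had 0 counts in at least 1 library, but Cd8a and Cd79b had counts in all 12. Cd8a, the co-receptor of cytotoxic T cells, measured 0.975, 1.68, 1.52 and 1.51 CPM in NC, 0.526, 0.42, 0.665 and 0.565 in the mCherry group and 0.621, 2.14, 0.76 and 0.842 in the FGF23 variant group. Here the mCherry group was below NC without overlap, at -1.36 ± 0.31 (log2, SE; edgeR adjusted p = 0.00398). The difference of 1.00 ± 0.43 between the injured groups was not called (adjusted p = 0.12), and replicate 2 of the FGF23 variant group lay above every other library. Cd3e, a signalling chain of the T cell receptor complex, had 0.368, 0.193, 0.719 and 0.338 CPM in NC and 0, 0.16, 0 and 0 in the mCherry group. Its call of -3.38 ± 1.13 (adjusted p = 0.0275) was lost without mCherry replicate 1, 3 or 4 or NC replicate 1, 3 or 4, with adjusted p of up to 0.0851, and the fit without mCherry replicate 2, where that group is all 0, gave -7.61, which is no bound.

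The companion chains Cd3d and Cd3g and the helper T cell co-receptor Cd4 did not pass the test in the mCherry group against NC (-0.61 ± 1.25, -2.07 ± 0.98 and -1.86 ± 0.79 in log2, edgeR adjusted p = 0.708, 0.0994 and 0.0689). There voom called Cd3g (-3.08, adjusted p = 0.027) and Cd4 (-2.43, 0.0215), and DESeq2 called Cd4 (-1.88, 0.039). Cd4 measured 0.57, 0.562, 0.441 and 0.853 CPM in NC, 0.315, 0.24, 0 and 0.104 in the mCherry group and 0.177, 0.0515, 0.31 and 0.154 in the FGF23 variant group. NC did not overlap the injured groups, and the FGF23 variant group was lower, at -1.78 ± 0.52 (adjusted p = 0.0186), or -1.58 without NC replicate 4 (adjusted p = 0.0607). Of 14 genes tested in a wider T cell list of 22, 4 were lower and 1 higher in the mCherry group (26.0% and 27.2% of all genes). Its most abundant gene, the transcription factor Bcl11b, which tissues outside the T lineage also use, fell from 6.18 ± 1.25 to 1.86 ± 0.822 CPM (SD, n = 4; adjusted p = 0.00109). Lck, the kinase of T cell receptor signalling, did not pass (1.63 and 2.31 CPM on average, adjusted p = 0.334).

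The B cell receptor chains Cd79a and Cd79b were not called in the mCherry group (0.01 ± 0.83 and 0.09 ± 0.60 in log2, edgeR adjusted p = 0.997 and 0.91). Cd79b measured 1.49, 1.53, 0.507 and 0.982 CPM in NC, 0.421, 0.86, 2.88 and 0.58 in the mCherry group and 0.342, 0.386, 0.62 and 0.239 in the FGF23 variant group, with replicate 3 of the mCherry group the highest of all. It was lower in the FGF23 variant group than in NC, at -1.48 ± 0.43 (adjusted p = 0.0186), or -1.30 without NC replicate 2 (adjusted p = 0.0577). Against the mCherry group it differed by -1.58 ± 0.61 (adjusted p = 0.0896), and by -1.86 without mCherry replicate 1 (adjusted p = 0.0497). DESeq2 also called that difference, at -1.58 (adjusted p = 0.0413). Ms4a1 (CD20) had no counts in any mCherry library, at most 0.158 CPM in NC and at most 0.113 in the FGF23 variant group, and was not tested.

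In a wider B cell list of 15 genes, 7 of 10 tested were lower in the mCherry group against NC (26.0% of all genes). Of 9 tested in the FGF23 variant group against the mCherry group, 2 were higher (11.7% of all genes). Ighm, the heavy chain of immunoglobulin M, was at 8.06 ± 0.576 CPM in NC, 1.38 ± 0.279 in the mCherry group and 3.44 ± 1.54 in the FGF23 variant group (SD, n = 4). Its change against NC was -2.52 ± 0.20 in the mCherry group (log2, SE; edgeR adjusted p = 2.77e-06), and the FGF23 variant group was 1.32 ± 0.31 above the mCherry group (adjusted p = 0.0151). Cd72, a B cell co-receptor at 8.23, 6.04 and 7.18 CPM on average, was not called in the mCherry group (adjusted p = 0.404).

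Nkg7, a granule protein of NK and cytotoxic T cells, measured 0.791, 0.825, 0.49 and 0.773 CPM in NC, 0.28, 0.2, 0.127 and 0.163 in the mCherry group and 0.114, 0.0901, 0 and 0.0983 in the FGF23 variant group. NC was above both injured groups without overlap, and the changes were -1.87 ± 0.43 and -3.19 ± 0.66 (log2, SE; edgeR adjusted p = 0.00383 and 0.00283). The FGF23 variant libraries were also all below the mCherry libraries, but the gene was not tested between them for lack of counts. The protease Gzma (granzyme A) had 0.46, 0.562, 0 and 0.193 CPM in NC, no counts in the mCherry group, and counts in 1 FGF23 variant library (0.0563 CPM). A count of 0 allows up to 0.0446 to 0.06 CPM in the mCherry libraries, for counting error only.

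Among a wider list of 15 NK and cytotoxic genes, 6 were tested. In the mCherry group against NC 1 was higher and 1 lower (27.2% and 26.0% of all genes). The FGF23 variant group against the mCherry group also had 1 higher and 1 lower (11.7% and 11.4% of all genes). The chemokine Ccl5, which tubule cells can also make, was at 1.1 ± 0.702, 1.03 ± 0.371 and 3.53 ± 1.49 CPM in NC, the mCherry group and the FGF23 variant group (SD, n = 4; edgeR adjusted p = 0.0072 between the injured groups). The cytokine receptor chain Il2rb fell from 2.17 ± 0.607 CPM in NC to 0.218 ± 0.27 in the mCherry group (adjusted p = 0.00669). Of 8 mast cell, basophil and eosinophil genes, 2 were tested. The interleukin 5 receptor Il5ra was higher with the FGF23 variant, at 5.09 ± 1.85 against 2.27 ± 0.961 CPM in the mCherry group (adjusted p = 0.0342), a call lost without 5 of the 8 libraries in turn, namely FGF23 variant replicates 1 and 5 and mCherry replicates 1, 2 and 3. The IgE receptor chain Ms4a2, at 0.559, 0.338 and 0.678 CPM, was not called.

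**Figure D4:**
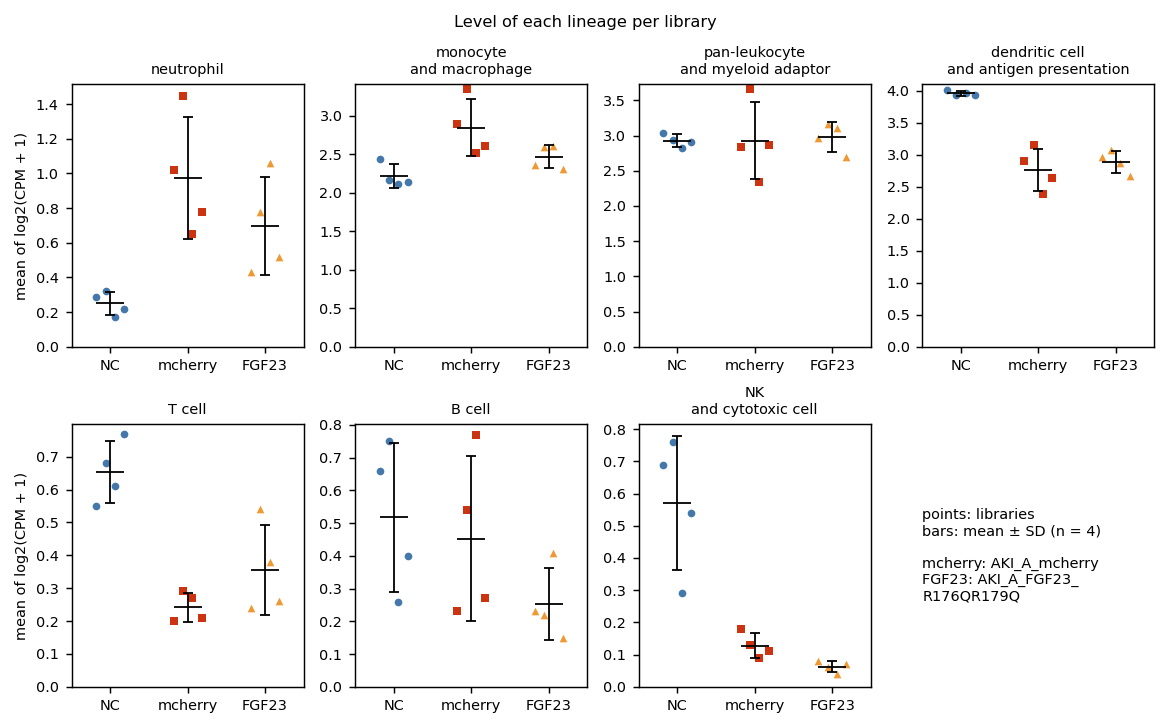
Level of each lineage in each library, as the mean over its members of log2(CPM + 1), by group. Points are libraries and bars are the mean and SD (n = 4). The neutrophil level was 0.17 to 0.32 in NC and 0.65 to 1.45 in AKI_A_mcherry, and the level of dendritic cell and antigen presentation genes was 3.94 to 4.02 in NC and 2.39 to 3.15 in AKI_A_mcherry.

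Set side by side, the lineages differed in direction and in how far the FGF23 variant group stood from the mCherry group. The lineage level, the mean of log2(CPM + 1) over members, was 0.25 ± 0.07 in NC (SD, n = 4), 0.98 ± 0.35 in the mCherry group and 0.70 ± 0.28 in the FGF23 variant group for neutrophil genes. For monocyte and macrophage genes it was 2.21 ± 0.16, 2.84 ± 0.37 and 2.47 ± 0.15 in the same order, and for pan-leukocyte genes 2.93 ± 0.09, 2.93 ± 0.55 and 2.98 ± 0.21. For dendritic cell and antigen presentation genes it was 3.97 ± 0.04, 2.77 ± 0.33 and 2.89 ± 0.17. T cell genes gave 0.65 ± 0.09, 0.24 ± 0.04 and 0.36 ± 0.14, and NK and cytotoxic genes 0.57 ± 0.21, 0.13 ± 0.04 and 0.06 ± 0.02. B cell genes gave 0.51 ± 0.23, 0.45 ± 0.25 and 0.25 ± 0.11. The NC libraries overlapped neither injured group for neutrophil, dendritic cell, T cell and NK genes, and overlapped both for B cell and pan-leukocyte genes. The wider B cell list did not share this overlap. It summed to 28.3 to 38.9 CPM in NC, 8.18 to 19.9 in the mCherry group and 14.7 to 20.2 in the FGF23 variant group. Between the injured groups the ranges overlapped for every lineage but NK and cytotoxic genes. That level rests on Nkg7 and Gzma, which had few counts and were not tested between these groups. The wider NK and cytotoxic list did not share this order. It summed to 2.83 to 4.78 CPM in the mCherry group and 4.2 to 8.18 in the FGF23 variant group. Within the pan-leukocyte genes Ptprc fell in both injured groups, while Tyrobp and Fcer1g did not pass the test. This contrast depends on the scaling in the FGF23 variant group against NC. With library totals alone, Ptprc was at -0.30 and not called (edgeR adjusted p = 0.0858), while Tyrobp (0.58, 0.0343) and Fcer1g (0.66, 0.00926) were called higher.

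Length-scaled levels (FPKM, fragments scaled to transcript length and library size) allowed the genes to be compared with each other. In NC, Cd74 had the highest FPKM of the 41 members, at 88.4 ± 6.6 (SD, n = 4), followed by H2-Ab1 at 22.4 ± 3.07, Lyz2 at 18.1 ± 7.79, H2-Aa at 16.1 ± 2.28 and Csf1r at 11.6 ± 1.11. The range of Lyz2 overlapped those of H2-Ab1 and H2-Aa, which did not overlap each other. In the mCherry group the highest were Lyz2 at 35.7 ± 17.8, Cd14 at 33.5 ± 4.6 and Cd68 at 30 ± 8.62 FPKM, with Cd74 next at 27.2 ± 9.64, and the ranges of these 4 genes overlapped. Cd68, which ranked 12 in NC at 1.79 ± 0.573 FPKM, thus stood among the highest of the members in the mCherry group. Csf1r went from rank 5 in NC to rank 10 in the mCherry group, at 3.76 ± 0.443. In the FGF23 variant group Cd74 was again first, at 37.4 ± 10 FPKM, with Lyz2 at 18.3 ± 4.69, Cd14 at 17.5 ± 6.73 and Cd68 at 12.1 ± 3.43. A mean of at least 1 FPKM was reached by 12 members in NC, 16 in the mCherry group and 14 in the FGF23 variant group. No neutrophil gene exceeded a mean of 0.263 FPKM in NC, and in the mCherry group S100a9 (2.62 ± 2.15) and S100a8 (1.18 ± 0.623) were the highest of that lineage.

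Against NC, which shares its libraries with the first comparison, the FGF23 variant group had 7 members higher, namely S100a8, S100a9, Cd68, Itgam, Cd14, Arg1 and Coro1a. Cd68 was higher by 2.41 ± 0.28 and Cd14 by 2.47 ± 0.33 (log2, SE; edgeR adjusted p = 6.52e-05 and 1.68e-04). Itgam was higher by 1.57 ± 0.34 (adjusted p = 0.00386), and Arg1 by 2.30 ± 0.71 (0.0235), a call lost without FGF23 variant replicate 2 or 5 or NC replicate 2 or 4 (adjusted p of up to 0.0635). Coro1a, at 0.53 ± 0.18 (adjusted p = 0.0369), was lost without FGF23 variant replicate 1, 2 or 3 or NC replicate 3 or 4 (up to 0.099). The 11 lower members included Csf1r (-1.11 ± 0.11), Cd74 (-1.57 ± 0.18), H2-Aa (-2.05 ± 0.18) and H2-Ab1 (-1.69 ± 0.14), with adjusted p of 2.91e-05, 5.74e-05, 1.06e-05 and 7.82e-06. Xcr1 was lower, at -3.25 ± 0.78 (adjusted p = 0.00702), and at -4.33 without FGF23 variant replicate 5. The others were Ptprc, Cd4, Cd79b and Nkg7, given above, and Adgre1 (-0.59 ± 0.21, adjusted p = 0.0417) and Ccr2 (-0.52 ± 0.17, 0.035). The Adgre1 call was lost without FGF23 variant replicate 1, 2 or 5 or NC replicate 1, 3 or 4 (up to 0.101). The Ccr2 call was lost without FGF23 variant replicate 1, 3 or 5 or NC replicate 3 or 4 (up to 0.0918). With library totals alone, Adgre1 (-0.26, 0.318) and Ccr2 (-0.19, 0.392) were not called. Without the filter, Arg1, Coro1a, Adgre1 and Ccr2 were not called. With all 12 libraries in 1 fit, Coro1a, Adgre1, Ccr2, Cd4 and Cd79b were not called. With replicate numbers as a block, S100a9, Itgam, Arg1, Coro1a, Adgre1, Ccr2, Ptprc, Cd4 and Cd79b were not called.

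Markers of other kidney cells moved between the same groups. All 6 proximal tubule genes were lower in the mCherry group than in NC, and their summed level was 7235 to 10608 CPM in NC, 834 to 1081 in the mCherry group and 1308 to 2666 in the FGF23 variant group. All 3 thick ascending limb genes were lower in the mCherry group (7308 to 10112 CPM summed in NC, 3000 to 3404 in the mCherry group) and higher again in the FGF23 variant group (4944 to 7352). Endothelial genes summed to 193 to 251, 151 to 219 and 215 to 268 CPM in the 3 groups, and fibroblast genes to 146 to 211, 102 to 305 and 271 to 296. Adipocyte genes, a sign of attached fat, summed to 1.66 to 86.5 CPM in NC, 0 to 105 in the mCherry group and 0.631 to 73.6 in the FGF23 variant group. Of 5 platelet genes 2 were tested and 1 was higher in the mCherry group, with sums of 7.5 to 10.1, 6.41 to 14.9 and 5.21 to 6.96 CPM, and Treml1 at 0 throughout NC. The part of these shifts in the leukocyte values, which are shares of each library's counts, was not tested.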

How the data were processed

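Poly(A) RNA of 12 mouse kidney libraries was sequenced as read pairs with dUTP strand marking, per the labels' protocols. The build was GRCm39 and the tools listed are StringTie, fastp and edgeR, per the submitters' processing notes. Whole-number gene counts and FPKM values were deposited by the authors, per the file headers. How strand was used in counting is not given in the sources used here. In these deposited counts a value of 4 occurred 11995 times and a value of 3 occurred 5847 times, so low counts are not plain tallies of reads, and floors and fold changes near them are approximate.

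The members and all lists were chosen with earlier results of these data known. Groups came from the sample titles. Each comparison used the 8 libraries of its 2 groups. The tool was edgeR 4.0.16 in R 4.3.3, with filterByExpr to drop low genes, TMM scaling and the quasi-likelihood F test. P-values were adjusted by Benjamini-Hochberg over every gene tested, with a threshold of 0.05. FPKM served for comparing genes with each other and was not tested. All 41 members are named, and of each wider list the 2 genes with the highest mean CPM. Others were chosen after their values were seen. Of 150 genes in the wider lists, 145 were found. Alternatives replaced the test by DESeq2 1.42.0 or by voom with quality weights (limma 3.58.1), and the scaling by RLE factors or by library totals alone. Others left out the filter, raised it to a mean of 5 CPM, fitted all 12 libraries together, used replicate numbers as a block, or omitted each library in turn. On simulated data, the test of the mCherry group against NC recovered 53.6% of 56 genes changed 2-fold and 79.1% of 67 changed 4-fold among 18724. Of 77 genes changed 1.5-fold it recovered 19.5%. Between the injured groups it recovered 14.7% of 68 changed 1.5-fold, 50.8% of 65 changed 2-fold and 74.6% of 67 changed 4-fold. Differences of 1.5-fold to 2-fold could thus often be missed. Within groups, log2 CPM correlated at 0.982 to 0.993, and no pair of libraries agreed within sampling noise.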

Additional observations from a re-analysis of the deposited data

Results flagged for a closer look

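In 10 of the 121 sets of 4 libraries tested (1 member in 1 group), a library lay far from the other 3 by Dixon's criterion. For normally distributed values, chance meets it in about 1 of 20. That rate does not hold where the other 3 libraries are all at 0, as for S100a8, Cd3e and Gzma below. There any value above 0 is flagged. In mCherry replicate 2, Lyz2 was at 99.4 CPM (35.5 to 39.9 in the others), Fcgr1 at 5.4 (1.87 to 2.34), Coro1a at 26.5 (8.94 to 10.9) and Cd3e at 0.16 (0 in the others). In NC replicate 3, Tyrobp was at 2.21 CPM (3.13 to 3.32) and Nkg7 at 0.49 (0.773 to 0.825), and in NC replicate 2, S100a8 was at 0.0877 (0 in the others). In FGF23 variant replicate 2, Cd8a was at 2.14 CPM (0.621 to 0.842) and Ms4a1 at 0 (0.101 to 0.113). Gzma was at 0.0563 CPM in FGF23 variant replicate 3 (0 in the others).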

How the results depend on the processing

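Of 1715 single-member values under the alternatives, none that was called changed sign, 67 lost the call and 42 gained one. In 68 further cases the sign changed where neither fit made a call. Of the mCherry group against NC, 10 members higher and 12 lower became 2 and 5 with a mean of at least 5 CPM, which tests fewer genes. With that filter 1 member was higher in the FGF23 variant group against the mCherry group, and 3 were higher and 6 lower against NC. With library totals alone, 14 members were higher in the FGF23 variant group against NC, where the macrophage median was 0.51. With all 12 libraries in 1 fit 7 were lower there. With voom the T cell median in the mCherry group was -2.66, and with at least 5 CPM the macrophage median between the injured groups was -1.13. The cause was not tested. Leaving out each library gave 8 to 12 higher and 11 to 13 lower in the mCherry group against NC, 1 to 3 and 3 to 6 between the injured groups, and 5 to 8 and 8 to 12 in the FGF23 variant group against NC. Medians then ranged from 2.42 to 4.39 for neutrophil and -0.19 to 0.43 for pan-leukocyte genes (mCherry group against NC), from -0.85 to -0.32 for macrophage and -0.14 to 0.94 for T cell genes (between the injured groups), and from 1.97 to 3.52 for neutrophil genes (FGF23 variant group against NC). Over all genes, library totals alone moved the median change in the FGF23 variant group against NC to 0.34 and the higher and lower calls from 4123 and 3912 to 7829 and 2096. The splits became 5828 and 3958 from 5088 and 4859 in the mCherry group against NC, and 4060 and 1035 from 2199 and 2148 between the injured groups. With the replicate number as a block, 9 members were higher and 11 lower in the mCherry group against NC, 1 higher between the injured groups, and 3 higher and 6 lower in the FGF23 variant group against NC. The numbers were not taken to pair the libraries, since same-numbered libraries correlated at -0.288 to 0.19 in their deviations over 10 pairs. Of 6 libraries of the injured groups, 3 correlated best with their own number. At this depth Ms4a1 and Gzma had too few counts to be tested. Retnlg and Cd3e had 0 counts in some libraries, and their calls in the mCherry group against NC were lost under 9 and 8 of 15 alternatives.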
